A study of Temnothorax americanus and Temnothorax ambiguus and Temnothorax curvispinosus with 48 samples.

Results

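Sugar-using enzymes and trehalose transporters of 6 Temnothorax ant species are described here, as contigs (assembled transcripts) whose best protein match has in its title maltase, glucosidase, amylase, trehalase, trehalose, glucose dehydrogenase, hexokinase or lactase-phlorizin. These 8 search terms found 26 contigs among the 2140 contigs that carry a protein name: 11 in T. pilagens, 6 in T. americanus, 6 in T. duloticus, 2 in T. ambiguus, 1 in T. curvispinosus and none in T. longispinosus. Names exist only for contigs that the authors called between behavioural states in these samples, so the fold changes of the 26 contigs are given as a description, without p-values. Temnothorax americanus, T. duloticus and T. pilagens are slavemakers, whose workers raid neighbouring nests for brood, and T. longispinosus, T. curvispinosus and T. ambiguus are the hosts they raid. Every library is a pool of whole workers from several colonies, with 4 libraries for each species and state and 48 in all. Slavemaker workers, chosen as infertile in both states, were taken while raiding (raiding state) or in autumn after the raiding season (non-raiding state). Season and state therefore cannot be told apart. Host workers were taken while defending their nest outside it (defending state), against foragers taken before any raid (before raid state), so worker task and state cannot be told apart. All colonies were fed honey and crickets.

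In insects the main sugar of the blood is trehalose, which the fat body makes from glucose and releases through trehalose transporters. Trehalase splits trehalose into glucose, and hexokinase adds the phosphate that commits glucose to glycolysis, glycogen or the pentose pathway. Sugar in food is freed by amylases, which cut starch and glycogen, and by alpha-glucosidases and maltases, which cut maltose and sucrose, while glucose dehydrogenase oxidises glucose to gluconolactone. Levels are counts-per-million of the library total (CPM), and each fold change is raiding over non-raiding (in hosts, defending over before raid) on the log2 scale from edgeR, with its standard error (SE). CPM are not corrected for contig length, which is not given, so an order of CPM between contigs is no order of transcript amounts, and a sum of contigs weighs long contigs more. Whole bodies were sequenced, so fewer cells of a tissue and less RNA per cell cannot be told apart.

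The study removed 6 libraries as outlying, and values rest on the 42 libraries it kept (5.94 to 49.1-million counts, median 19.5-million) unless all 8 of a species are named. States follow the sample titles, BR for non-raiding or before raid and DR for raiding or defending, and these labels carry a doubt. All 12 slavemaker libraries whose number and letter tag occur in contig names have tags that can be read as the other state (smadr on 8 non-raiding and smifors on 4 raiding libraries), whereas the tags of the 11 host libraries fit their titles, and no source explains the tags. The table of T. duloticus also heads its raiding libraries with the letters BR, so these were matched by library number. If the labels of the slavemakers were exchanged, every direction given for them would turn. Contigs named for 1 library were most often highest in a library of the same labelled state for 19 of 23 library numbers, and for 9 of 12 in slavemakers. The exceptions there were T. americanus DR_440, whose contigs were most often highest in BR_436, and T. pilagens BR_682 and BR_683, whose contigs were most often highest in DR_686 and DR_687. An exchange of both state labels of a species would leave these counts unchanged, so they cannot decide whether the labels were exchanged.

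All 25 contigs (of 26) that passed the filter on low counts had a fold change below 0, between −0.71 for trehalase c3325 and −3.29 for Maltase 1 c11696. The contig that did not pass, Maltase 1 680-contig-33613 of T. pilagens, was also at 0 counts in the raiding libraries. Direction was no part of the choice, but the state contrast was, and the contigs of the authors' tables lean the same way in slavemakers: 66.7% of named contigs tested in T. americanus, 78.6% in T. duloticus and 68.8% in T. pilagens had a fold change below 0, against 28.0% in T. curvispinosus and 48.3% in T. ambiguus. Over all contigs tested, 48.4% in T. pilagens to 54.1% in T. curvispinosus were below 0. The median fold change of the sugar contigs was −1.25 in T. americanus, −1.39 in T. duloticus and −1.98 over the 10 tested in T. pilagens, where the median of all contigs tested was 0.00, 0.01 and 0.02 in that order of species.

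**Figure D1:**
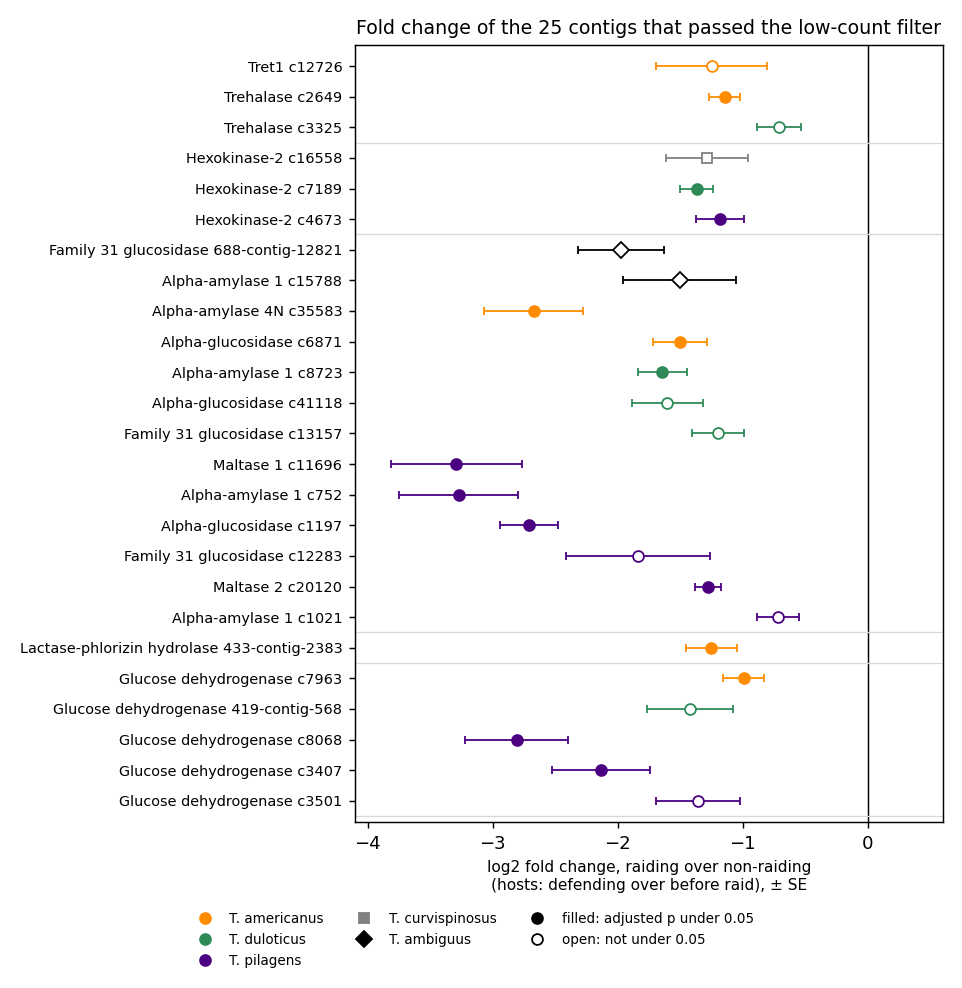
Log2 fold change (raiding over non-raiding, in hosts defending over before raid) with its SE for the 25 contigs that passed the low-count filter, grouped by role from trehalose use at the top to glucose dehydrogenase at the bottom. Colours and marker shapes give the species, and filled points passed edgeR's quasi-likelihood test over all contigs of the species at an adjusted p under 0.05. Every point lies left of 0, and the points farthest from 0 belong to T. pilagens.

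Trehalose use was represented by 3 contigs, all in slavemakers. Trehalase c2649 of T. americanus, the enzyme that splits blood trehalose, had 33.8, 36.7 and 28.4 CPM in the kept raiding libraries and 30.7 CPM in the removed DR_439, against 68.9, 72.1, 69.9 and 85.1 CPM in the non-raiding libraries. The raiding libraries lay close together and far below the non-raiding libraries, without overlap. The fold change was −1.14 (SE 0.12).

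The same protein record was the match of trehalase c3325 in T. duloticus, which had 32.2, 54.5, 29.7 and 40.1 CPM in raiding libraries, against 58.1, 58.2, 64.0 and 71.5 CPM in non-raiding libraries. One raiding library, DR_422, came close to the non-raiding range, and the fold change was −0.71 (SE 0.18), the smallest of the 25. Facilitated trehalose transporter Tret1 c12726 of T. americanus, the carrier that lets trehalose cross cell membranes, had 31.6, 30.4 and 19.8 CPM in the kept raiding libraries and 26.9 CPM in DR_439, against 24.8, 108, 67.9 and 61.3 CPM in the non-raiding libraries. The non-raiding library BR_433 lay within the raiding range, so that Tret1 was the exception among the 26 contigs in which kept libraries of the states overlapped, and its fold change of −1.25 had an SE of 0.45.

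Hexokinase-2, the enzyme that phosphorylates glucose on entry into the cell, was found in 2 slavemakers and 1 host. In T. duloticus, hexokinase-2 c7189 had 61.4, 80.5, 64.9 and 80.0 CPM in raiding libraries, against 212, 155, 193 and 169.7 CPM in non-raiding libraries. Every raiding library was far below every non-raiding one, and the fold change was −1.37 (SE 0.13). It was the member of T. duloticus called in all 8 fits that left out 1 library.

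In T. pilagens, hexokinase-2 c4673 had 73.5, 95.9 and 56.8 CPM in the kept raiding libraries and 62.8 CPM in the removed DR_687, against 132, 170.2, 189 and 171 CPM in the non-raiding libraries. The states did not overlap, and the fold change of −1.18 (SE 0.19) differed by less than its SE from that in T. duloticus, whose contig matched the same protein record. In the host T. curvispinosus, hexokinase-2 c16558 had 56.1, 87.4 and 76.5 CPM in the kept defending libraries and 76.1 CPM in the removed DR_414, against 196, 232 and 99.7 CPM in the kept before raid libraries and 41.6 CPM in the removed BR_411. The kept libraries did not overlap, but BR_411 was lower than every defending library, so that the separation was lost over all 8. The fold change over kept libraries was −1.28 (SE 0.33).

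**Figure D2:**
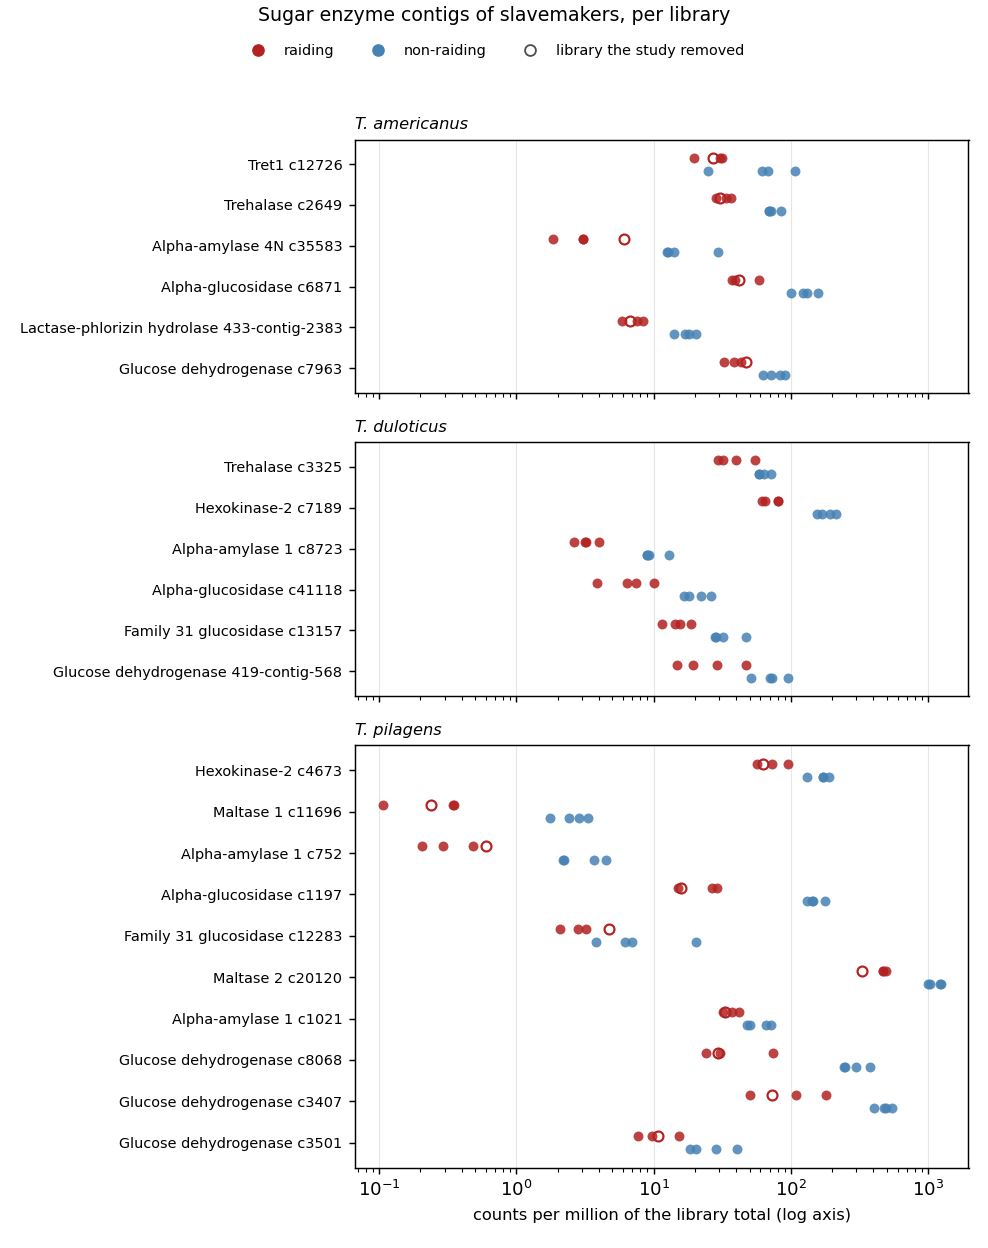
Level of each sugar contig of the slavemakers in every library, in CPM on a log axis, with raiding libraries in red above non-raiding libraries in blue and open circles for libraries the study removed. Maltase 1 680-contig-33613, with 0 counts in the raiding libraries, cannot be drawn on this axis. Only Tret1 of T. americanus overlaps between kept libraries of the states, and the removed DR_687 makes the family 31 glucosidase of T. pilagens overlap as well.

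Starch and sucrose digestion held 14 contigs, 12 of them in slavemakers. In T. pilagens, maltase 2 c20120, an enzyme that frees glucose from maltose, had 471, 467 and 496 CPM in the kept raiding libraries and 331 CPM in DR_687, against 997, 1037, 1234 and 1224 CPM in the non-raiding libraries. The kept raiding libraries lay close together, and the fold change of −1.28 had the smallest SE of the 25 contigs (0.10). Alpha-glucosidase c1197, which also cuts maltose and sucrose, had 29.2, 15.0 and 26.8 CPM in the kept raiding libraries and 15.7 CPM in DR_687, against 131, 145, 178 and 143 CPM in the non-raiding libraries. The lowest non-raiding library was 4.48 times the highest kept raiding one, and the fold change was −2.71 (SE 0.23). Both contigs were called in all 7 fits that left out 1 library.

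Alpha-amylase 1 was present in T. pilagens as 2 contigs with different protein records. Alpha-amylase 1 c1021 had 37.4, 32.1 and 41.7 CPM in the kept raiding libraries and 33.0 CPM in DR_687, against 71.9, 65.8, 47.8 and 50.4 CPM in the non-raiding libraries, a fold change of −0.72 (SE 0.17). The states were apart by a narrow margin. Alpha-amylase 1 c752 was at 0.480, 0.294 and 0.207 CPM in the kept raiding libraries, against 4.53, 3.66, 2.17 and 2.23 CPM in the non-raiding libraries, a fold change of −3.27 (SE 0.48) that rests on 3 to 9 counts per raiding library. The remaining digestion contigs of T. pilagens had few counts. Maltase 1 c11696 averaged 0.268 ± 0.140 CPM in raiding libraries (SD, n = 3) and 2.59 ± 0.661 CPM in non-raiding libraries (SD, n = 4), a fold change of −3.29 (SE 0.52), and the family 31 glucosidase c12283, of a family that holds lysosomal and processing alpha-glucosidases, averaged 2.70 ± 0.574 CPM in raiding libraries (SD, n = 3) and 9.37 ± 7.56 CPM in non-raiding libraries (SD, n = 4). The non-raiding library BR_683 alone held 20.5 CPM of that glucosidase, and the removed DR_687, with 4.77 CPM, was above the lowest non-raiding library. Maltase 1 680-contig-33613 had 0 counts in all 4 raiding libraries, against 53 counts over the 4 non-raiding libraries, 36 of them in BR_680. With a floor of 3 counts over the raiding libraries it was at least 13.6-fold lower in the 3 kept raiding libraries, and at least 18.2-fold lower over all 4, by counting error only.

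In T. americanus, alpha-glucosidase c6871, whose match is a partial protein, had 58.3, 38.9 and 37.1 CPM in the kept raiding libraries and 42.1 CPM in DR_439, against 123, 158, 101 and 132 CPM in the non-raiding libraries. The states were well apart, and the fold change was −1.50 (SE 0.22). Alpha-amylase 4N c35583 had the fold change farthest from 0 in the species, −2.67 (SE 0.40), with 3.07, 1.84 and 3.08 CPM in the kept raiding libraries and 6.12 CPM in DR_439, against 29.4, 12.7, 14.1 and 12.5 CPM in the non-raiding libraries. The removed library was the highest of the raiding state and BR_433 the highest of the non-raiding state, and the states remained apart with all 8 libraries.

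In T. duloticus, the family 31 glucosidase c13157 had 15.6, 14.3, 11.4 and 18.8 CPM in raiding libraries, against 28.5, 32.0, 28.2 and 47.5 CPM in non-raiding libraries, a fold change of −1.20 (SE 0.21). Its states did not overlap. Alpha-glucosidase c41118 averaged 6.91 ± 2.56 CPM in raiding libraries and 20.7 ± 4.17 CPM in non-raiding libraries (SD, n = 4 each), a fold change of −1.60 (SE 0.29). Alpha-amylase 1 c8723 averaged 3.26 ± 0.573 CPM in raiding libraries and 10.1 ± 1.98 CPM in non-raiding libraries (SD, n = 4 each), a fold change of −1.64 (SE 0.20). Neither contig overlapped between the states.

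Summed over the digestion contigs of a species, the kept raiding libraries held 40.2 to 61.4 CPM in T. americanus (2 contigs), against 115 to 171 CPM in the non-raiding libraries, a log2 ratio of the means of −1.62. In T. duloticus (3 contigs) the raiding libraries held 21.3 to 31.4 CPM, against 57.5 to 74.8 CPM in the non-raiding libraries, a log2 ratio of −1.36. That sum averaged 25.2 CPM in raiding and 64.8 CPM in non-raiding libraries, and most of it came from the family 31 glucosidase (15.0 and 34.0 CPM). In T. pilagens (7 contigs) the kept raiding libraries held 518 to 568 CPM, against 1215 to 1472 CPM in the non-raiding libraries, a log2 ratio of −1.31. These ratios lie closer together than the fold changes of the single contigs, and in T. pilagens most counts of the sum come from maltase 2. Each of the 12 contigs was already apart between kept libraries of the states, so the separation of the sums adds nothing to it. Digestion contigs that the authors did not call have no name and are not in these sums.

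Named contigs with trypsin, chymotrypsin, aminopeptidase N or carboxypeptidase in the title are here called gut proteases. The titles do not show that each is a digestive enzyme of the gut. Gut proteases had lower sums in raiding libraries, as the digestion contigs did, in 2 of the 3 slavemakers. In T. duloticus their summed level (6 contigs) was 147 to 228 CPM in raiding libraries, against 341 to 673 CPM in non-raiding libraries, and in T. pilagens (18 contigs, a trypsin inhibitor among them) it was 1585 to 1784 CPM in the kept raiding libraries, against 2427 to 3473 CPM in the non-raiding libraries. By contrast, the summed level in T. americanus (9 contigs, a chymotrypsin inhibitor among them) overlapped, at 157 to 811 CPM in the kept raiding libraries, against 175 to 345 CPM in the non-raiding libraries. The 811 CPM were held by DR_440 alone. The other kept raiding libraries, at 157 to 174 CPM, lay at or below the lower end of the non-raiding range, and the removed DR_439, at 259 CPM, lay within it. By edgeR's quasi-likelihood test 12 of the 22 gut protease contigs tested in slavemakers were lower in the raiding state and none was higher (T. americanus had 1 of 5, beside 0.384% of all contigs tested, T. duloticus 3 of 6, beside 0.284%, and T. pilagens 8 of 11, beside 1.94%), and 18 of 22 fold changes were below 0, beside the 66.7 to 78.6% of named contigs given above. The 12 include retinoid-inducible serine carboxypeptidase of T. duloticus and T. pilagens and carboxypeptidase D of T. pilagens. The trypsin inhibitor of T. pilagens, which did not pass the test, averaged 375 CPM in the kept raiding and 125 CPM in the non-raiding libraries. Of the gut protease contigs, 3 of T. pilagens (2 of aminopeptidase N and 1 of carboxypeptidase B) and 3 of T. americanus (2 of Trypsin-7 and 1 of aminopeptidase N) averaged 0 CPM in the kept raiding libraries. None of them passed the low-count filter. Their non-raiding means were 0.631 to 1.28 CPM in T. pilagens. In T. americanus they were 14.1 ± 27.9 and 6.18 ± 12.4 CPM for Trypsin-7 and 1.39 ± 2.18 CPM for aminopeptidase N (SD, n = 4 each). The gut protease contigs, too, have names only because they were called on the same contrast, and the part of gut tissue in the levels of the sugar enzymes was not tested.

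**Figure D3:**
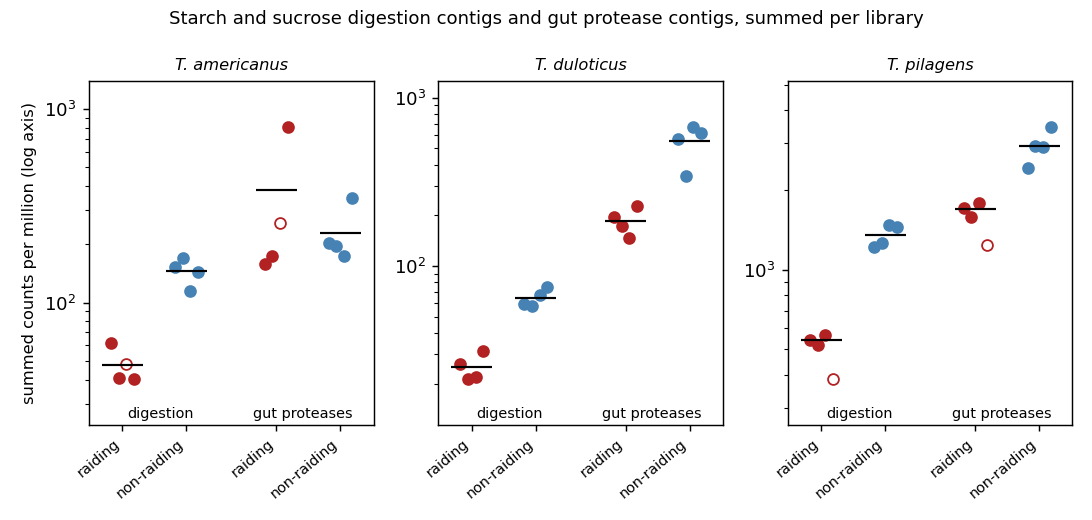
Summed CPM (log axis, a separate scale for each species) of the starch and sucrose digestion contigs and of the gut protease contigs in each library of the slavemakers, raiding in red to the left of non-raiding in blue. Open circles are libraries the study removed and the black lines are means of the kept libraries. The digestion sums of the states are apart in all 3 species, as each of their contigs was on its own, while the gut protease sums overlap in T. americanus. Contigs that the authors did not call have no name and are in neither sum.

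Marker contigs of other tissues differed in direction between proteins. Titin, the giant elastic protein of muscle, was higher in raiding libraries in both contigs of T. americanus and in all 4 contigs tested in T. pilagens (0.421% and 0.94% of all contigs tested were called higher). Troponin C, the calcium sensor of muscle, had lower means in raiding libraries, with 77.4 ± 66.5 CPM in raiding and 289 ± 64.4 CPM in non-raiding libraries of T. duloticus (SD, n = 4 each), and with 118 ± 82.1 CPM in raiding (SD, n = 3) and 371 ± 115 CPM in non-raiding libraries (SD, n = 4) of T. pilagens, and did not pass the test. Paramyosin, of the thick filament, did not pass it either (fold changes of −0.83 in T. duloticus and −1.19 in T. pilagens). Summed over all muscle contigs, the kept raiding libraries held 618 to 667 CPM in T. americanus, against 302 to 382 CPM in the non-raiding libraries, 27.4 to 182 CPM in T. duloticus, against 231 to 392 CPM, and 1398 to 1516 CPM in T. pilagens, against 958 to 1301 CPM, where the removed DR_687, with 1120 CPM, overlapped. The sums hold different proteins and are no like measure between species. That of T. americanus holds only titin, that of T. duloticus only troponin C and paramyosin, and that of T. pilagens all of these and myosin contigs. The latter were myosin light chain kinase (328 CPM in kept raiding and 186 CPM in non-raiding libraries on average, fold change 0.77, SE 0.17) and myosin-IB (88.6 and 129 CPM, −0.59, SE 0.15). Neither passed the test. Among fat body contigs, which code for yolk and storage proteins, Vitellogenin-6 had fold changes of 0.93 (SE 0.23) in T. duloticus and 2.02 (SE 0.74) in T. pilagens, while Vitellogenin-3 of T. duloticus, which makes up most of the fat body sum there (602 to 2647 CPM in raiding libraries, against 3805 to 14441 CPM in non-raiding libraries), had one of −2.40 (SE 0.73). Arylphorin subunit alpha of T. duloticus averaged 4.56 ± 1.24 CPM in raiding and 24.9 ± 17.7 CPM in non-raiding libraries (SD, n = 4 each). Its fold change was −2.47 (SE 0.55). None of these fat body contigs passed the test. The part of these tissues in the sugar enzymes was not tested. All 26 sugar contigs matched proteins of ants (19 of them of Acromyrmex echinatior), as did 1945 of the 2140 named contigs.

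Glucose dehydrogenase, which in Drosophila is known from the hardening of the cuticle and from sperm storage, had 5 contigs in the 3 slavemakers. In T. pilagens, glucose dehydrogenase c8068 had 24.3, 73.6 and 30.5 CPM in the kept raiding libraries and 29.6 CPM in DR_687, against 298, 379, 249 and 242 CPM in the non-raiding libraries. The raiding library DR_685 held more than the other raiding libraries did, and the states were still 3.29-fold apart at their nearest libraries. The fold change was −2.81 (SE 0.41), and −3.47 (SE 0.25) without DR_685.

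A further contig of T. pilagens, glucose dehydrogenase c3407, had 50.4, 179 and 109 CPM in the kept raiding libraries and 72.4 CPM in DR_687, against 550.3, 492, 476 and 406 CPM in the non-raiding libraries, a fold change of −2.13 (SE 0.39). Here too DR_685 was the highest raiding library and the states did not overlap. In glucose dehydrogenase c3501, DR_686 was highest among the raiding libraries, which averaged 10.9 ± 3.91 CPM (SD, n = 3), and the non-raiding libraries averaged 27.0 ± 10 CPM (SD, n = 4), a fold change of −1.36 (SE 0.33). Summed over the 3 contigs, the kept raiding libraries held 84.3 to 261 CPM, against 677 to 911 CPM in the non-raiding libraries, a log2 ratio of −2.27.

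In T. duloticus, the single glucose dehydrogenase contig had 19.4, 29.1, 14.9 and 46.8 CPM in raiding libraries, against 72.6, 95.6, 69.9 and 51.6 CPM in non-raiding libraries, a fold change of −1.42 (SE 0.34). Both states spread widely, and DR_424 came near BR_420. In T. americanus, glucose dehydrogenase c7963 had 32.8, 38.8 and 43.3 CPM in the kept raiding libraries and 47.1 CPM in DR_439, against 62.5, 90.1, 82.8 and 72.1 CPM in the non-raiding libraries, a fold change of −0.99 (SE 0.16). The states did not overlap. Both of these contigs and c8068 of T. pilagens matched 1 protein record, the only record found in all 3 slavemakers, and the fold change in T. pilagens was the farthest from 0.

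Lactase-phlorizin hydrolase of T. americanus, in 1 contig named for a beta-glycosidase that in mammals splits lactose at the surface of the small intestine, had 5.86, 7.62 and 8.33 CPM in the kept raiding libraries and 6.70 CPM in DR_439, against 16.9, 20.5, 18.0 and 14.1 CPM in the non-raiding libraries. The states did not overlap, and the fold change was −1.25 (SE 0.20).

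Among the protein records found in more than 1 species, set side by side without a test of the species against each other, T. pilagens had the fold change farther from 0 in alpha-glucosidase (−2.71 with SE 0.23, against −1.60 with SE 0.29 in T. duloticus). For the family 31 glucosidase the order rested on BR_683, since the fold change in T. pilagens was −1.83 (SE 0.57) with that library and −1.11 (SE 0.31) without it, and that in T. duloticus was −1.20 (SE 0.21). One alpha-amylase 1 record was matched by c8723 of T. duloticus (−1.64, SE 0.20) and by c1021 of T. pilagens (−0.72, SE 0.17). The other alpha-amylase 1 record was matched by c752 of T. pilagens (−3.27, SE 0.48) and by c15788 of its host T. ambiguus (−1.50, SE 0.45). The fold change of trehalase was −1.14 (SE 0.12) in T. americanus and −0.71 (SE 0.18) in T. duloticus. The fits are separate for each species and rest on separate assemblies, so differences between the assemblies and between the species cannot be told apart. Each slavemaker and its host also came from a region of their own, and T. pilagens and T. ambiguus were collected in a later year. Between species of different pairs, region therefore cannot be told apart from species. Nor can year where T. pilagens or T. ambiguus is compared with the others.

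In the hosts, 3 sugar contigs were named. Alpha-amylase 1 c15788 of T. ambiguus had 87.3, 86.9, 117 and 18.4 CPM in defending libraries, against 203, 233, 199.8 and 252 CPM in before raid libraries, a fold change of −1.50 (SE 0.45). DR_695 was far below the other defending libraries, and all of them were below the before raid libraries. The contig with the name of the family 31 glucosidase averaged 3.58 ± 1.32 CPM in defending libraries and 14.2 ± 5.30 CPM in before raid libraries (SD, n = 4 each), a fold change of −1.97 (SE 0.34), but its match covered 261 bases with a bit score of 67.0, against scores of 1475 for the contigs of that name in T. duloticus and T. pilagens, so its name is uncertain. In T. ambiguus the gut protease contigs ran the other way, with 145 to 1623 CPM in defending libraries, against 15.5 to 56.5 CPM in before raid libraries, and all 7 tested had fold changes above 0. Fat body contigs also had higher sums in defending libraries, in T. ambiguus (3 contigs) with 1946 to 12041 CPM in defending libraries, against 80.8 to 2159 CPM in before raid libraries, which overlapped, and in T. curvispinosus (1 contig of arylphorin) with 17.3 to 46.7 CPM in the kept defending libraries, against 5.24 to 8.89 CPM in the kept before raid libraries and 19.8 CPM in the removed BR_411. None of these contigs passed edgeR's quasi-likelihood test, and the part of gut and fat body in the levels of the sugar contigs of hosts was not tested.

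**Figure D4:**
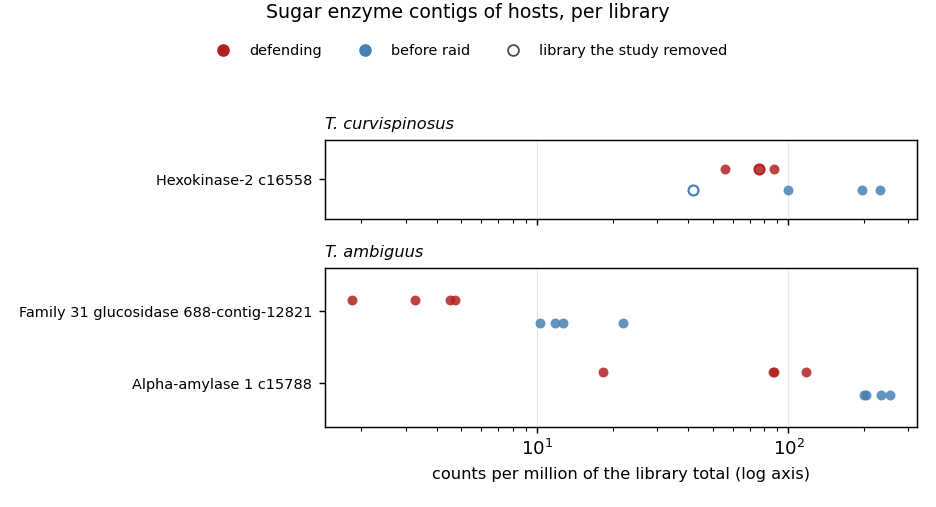
Level of the 3 sugar contigs of the hosts in every library, in CPM on a log axis, with defending libraries in red above before raid libraries in blue and open circles for libraries the study removed. The states overlap for hexokinase-2 of T. curvispinosus once the removed before raid library at 41.6 CPM is counted, and both contigs of T. ambiguus are apart.

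Counted by edgeR's quasi-likelihood test at a Benjamini-Hochberg adjusted p under 0.05, with nothing read from it because the names rest on the same contrast, 5 of the 6 sugar contigs of T. americanus were lower in raiding libraries, where 0.384% of all contigs tested were called lower. Trehalose transporter Tret1 was the exception. The count was 2 without BR_433, BR_435 or BR_436, 1 without BR_434, DR_437 or DR_440, and 0 without DR_438. Over all contigs tested, 155 were called lower with the kept libraries, and 10 (without DR_438) to 88 (without BR_434) in these fits. Trehalase c2649 was called most often, in 5 of these 7 fits, and glucose dehydrogenase c7963 in none.

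In T. duloticus 2 of 6 were called lower (hexokinase-2 and alpha-amylase 1), where 0.284% of all contigs tested were. The likelihood ratio test of edgeR and DESeq2 each called all 6 lower, where they called 1.56% and 1.9% of all contigs tested lower. The count was 1 without BR_417, BR_420, DR_421 or DR_422, and 4 without DR_424. Over all contigs tested, 118 were called lower with the kept libraries, and 27 (without BR_420) to 143 (without DR_424) with 1 left out. In T. pilagens 7 of the 10 tested were called lower, where 1.94% of all contigs tested were, the exceptions being the family 31 glucosidase, glucose dehydrogenase c3501 and alpha-amylase 1 c1021. The count was 3 without BR_681 or DR_684 and 4 without BR_682, and maltase 2 and alpha-glucosidase were among those called each time. Over all contigs tested, 744 were called lower with the kept libraries, and 194 (without DR_684) to 563 (without BR_683) with 1 left out.

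In the hosts the same test called none of the 3 sugar contigs, where 0.0% of all contigs tested were called in T. curvispinosus and in T. ambiguus. At an unadjusted p under 0.05 it had 1270 contigs in T. curvispinosus and 2683 in T. ambiguus, all 3 sugar contigs among them. DESeq2 and the likelihood ratio test each called 1 of the 2 sugar contigs of T. ambiguus, where they called 0.502% and 0.423% of all contigs tested lower, and not the hexokinase of T. curvispinosus, out of 78 and 67 contigs called in T. curvispinosus and 473 and 300 in T. ambiguus.

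Kept raiding libraries all lay below kept non-raiding libraries in 5 of 6 sugar contigs of T. americanus, where this held for 48.5% of all contigs of the authors' table of calls, in 6 of 6 of T. duloticus, against 54.5%, and in 11 of 11 of T. pilagens, against 56.2%. Among the named contigs of those tables, to which all sugar contigs belong, it held for 55.8%, 64.3% and 63.0% in that order of species. In hosts it held for the 1 contig of T. curvispinosus, against 43.5%, and for both of T. ambiguus, against 31.3%. The shares of named contigs were 24.4% in T. curvispinosus and 30.1% in T. ambiguus. The removed raiding libraries had no part in these fits. Among contigs with a fold change below 0, DR_439 of T. americanus lay below every kept non-raiding library in 5 of 6 sugar contigs and in 90.9% of the other named contigs, and DR_687 of T. pilagens in 9 of 10 and in 92.6%.

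Within a state, no library stood lowest or highest throughout. In T. pilagens the non-raiding library BR_680 was highest in 4 and lowest in 5 of 11 contigs, and in T. americanus the non-raiding library BR_434 was highest in 4 of 6. Of the 26 contigs, 4 are named for a single library, all of them non-raiding or before raid libraries, compared with 270 of the 399 single-library contigs among all named ones.

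Contigs other than these enzymes with words of sugar metabolism in their match titles were collected in 6 lists. In slavemakers 39 such contigs were named, again only where the authors called them. A title word does not show a part in sugar metabolism, and mannosidases and a glyoxylate reductase/hydroxypyruvate reductase are among the 39. By the same test 17 of the 39 were lower in raiding libraries and 5 were higher. In T. americanus the counts were 5 lower and 2 higher of 12 (0.384% and 0.421% of all contigs tested), in T. pilagens 12 lower and 3 higher of 22 (1.94% and 0.94%), and in T. duloticus none of 5, although all 5 had an unadjusted p under 0.05, and the likelihood ratio test called 4 and DESeq2 all 5. Sugar transporters of the ERD6 kind, which in plants carry sugar across membranes, were lower in 5 of 7 contigs, and all 7 had fold changes below 0. The one with the most counts in T. americanus, ERD6-like 7 c2070, averaged 96.0 ± 23.7 CPM in raiding libraries (SD, n = 3) and 228 ± 40.1 CPM in non-raiding libraries (SD, n = 4), a fold change of −1.22 (SE 0.19). In T. pilagens, the ERD6-like 6 contig with the most counts averaged 143 ± 17.6 CPM in raiding libraries (SD, n = 3) and 264 ± 37.9 CPM in non-raiding libraries (SD, n = 4), a fold change of −0.94 (SE 0.13).

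Phosphoenolpyruvate carboxykinase, the enzyme that opens gluconeogenesis, had 2 contigs in T. americanus. The contig c39839 averaged 22.8 ± 8.34 CPM in raiding libraries (SD, n = 3) and 87.9 ± 26.7 CPM in non-raiding libraries (SD, n = 4) and fell by 1.93 on the log2 scale (SE 0.32), while c14507 had a fold change of −1.13 (SE 0.23) and did not pass the test. Lysosomal and other glycosidases were lower in 5 of 8 contigs, beta-galactosidase c11660 of T. pilagens among them (−1.74, SE 0.29), and none was higher.

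The enzymes of the polyol route ran in both directions. In T. americanus aldose reductase c8964, which reduces glucose to sorbitol, averaged 553 ± 46.4 CPM in raiding libraries (SD, n = 3) and 192 ± 41.4 CPM in non-raiding libraries (SD, n = 4) and rose by 1.55 (SE 0.17). Sorbitol dehydrogenase c16859, which oxidises sorbitol to fructose, averaged 119 ± 32.1 CPM in raiding libraries (SD, n = 3) and 26.4 ± 5.0 CPM in non-raiding libraries (SD, n = 4) and rose by 2.18 (SE 0.23). In T. pilagens, by contrast, sorbitol dehydrogenase c12457 fell by 0.74 on the log2 scale (SE 0.13), and in T. duloticus sorbitol dehydrogenase c28148 had a fold change of −1.96 (SE 0.41) that did not pass the test. The difference between the species was not tested.

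A glycogen phosphorylase-like contig of T. pilagens, named for the enzyme that releases glucose units from glycogen, rose by 0.55 (SE 0.08), at 53.0 ± 4.27 CPM in raiding libraries (SD, n = 3) and 35.0 ± 1.79 CPM in non-raiding libraries (SD, n = 4). Of 13 contigs with insulin in the title 3 were lower and 2 higher. These calls were all among the 10 such contigs of T. pilagens, where 1.94% of all contigs tested were called lower and 0.94% higher. The 3 lower ones, all of T. pilagens, matched the acid labile chain of the insulin-like growth factor-binding complex, a carrier protein of mammalian blood, and the 2 higher ones matched insulin-degrading enzyme. Insulin receptor c2525 and insulin receptor-2 c2804 of T. pilagens had fold changes of 0.56 (SE 0.12) and 0.71 (SE 0.16) and did not pass the test.

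**Figure D5:**
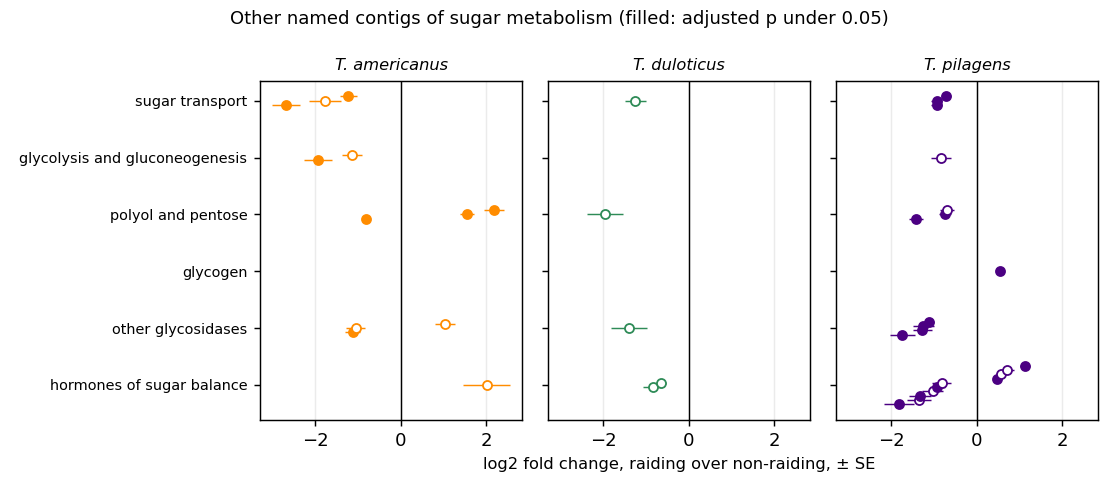
Log2 fold change (raiding over non-raiding) with SE of the 39 other named contigs found by title words of sugar metabolism in the slavemakers, by list. Filled points passed edgeR's quasi-likelihood test at an adjusted p under 0.05. All 7 sugar transporter contigs lie left of 0, while the polyol and insulin lists lie on both sides.

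Hosts had 7 contigs in these lists, of which edgeR's quasi-likelihood test called none, all at an unadjusted p under 0.05, and the likelihood ratio test and DESeq2 each called 3 lower and 4 higher. In T. ambiguus these were 3 lower and 3 higher of 6. Of all contigs tested there, 0.423% and 0.502% were called lower and 0.477% and 0.592% higher, in that order of tests. In T. longispinosus 1 of 1 was higher (0.164% and 0.135%). Both glucose transporter contigs of T. ambiguus had lower means in defending libraries, with 12.5 ± 4.85 CPM in defending and 38.1 ± 15.2 CPM in before raid libraries for c2706, and 31.5 ± 10.3 CPM in defending and 94.3 ± 36.3 CPM in before raid libraries for c25757 (SD, n = 4 each). The third lower contig was a mitochondrial enolase superfamily member (−0.74, SE 0.15). The contigs with higher means in defending libraries of T. ambiguus were 6-phosphogluconate dehydrogenase c37450, an enzyme of the pentose pathway, with 209.7 ± 40 CPM in defending and 86.8 ± 15.6 CPM in before raid libraries, pyruvate carboxylase c8115, which feeds gluconeogenesis, with 94.7 ± 31.9 CPM in defending and 43.1 ± 10.7 CPM in before raid libraries, and insulin-degrading enzyme c18616, with 2.76 ± 1.49 CPM in defending and 0.165 ± 0.207 CPM in before raid libraries (SD, n = 4 each). Insulin-degrading enzyme was also the contig of T. longispinosus, with 4.35 ± 2.60 CPM in defending and 0.459 ± 0.283 CPM in before raid libraries (SD, n = 3 each).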

How the data were processed

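RNA of pools of whole workers from 6 species was sequenced in 48 libraries. The authors assembled 1 transcriptome per species (CLC and MIRA, then CD-HIT), mapped trimmed reads and counted them with eXpress, and the submitters' processing notes name FastQC, Trimmomatic, Bowtie and TopHat2 2.0.13. They deposited raw counts per contig, without normalization, and tables of the contigs they called, with BlastX matches (match scores, names and positions). The authors' own fold changes and p-values in those tables were not used, nor were their 42 repeated count columns, 80 columns that repeat library names in later blocks and 8 unnamed ones. Contigs of near-identical copies of a gene share reads, so a single contig is an uncertain measure of its gene.

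Groups came from sample titles. Each species was fitted alone over the kept libraries with edgeR 4.0.16 (R 4.3.3): TMM scaling, a filterByExpr cutoff at 10 counts, glmQLFit and glmQLFTest, and Benjamini-Hochberg adjustment over all contigs at 0.05, tested on simulated data. The SE was taken as the size of the fold change over the root of F. Intervals and the floor of 3 counts cover counting error only. The same colonies were pooled in both states, but no source used here says which library is which pool, so p-values measure the spread between these pools. Alternatives were DESeq2 1.42.0, the likelihood ratio test (filtered or not), RLE factors, an unfiltered fit, fits over all 8 libraries of a species, and fits that leave 1 library out. Values of every library are given for trehalase, Tret1 and hexokinase contigs and for contigs of at least 20 CPM on average whose states do not overlap, at most the 4 of highest CPM per role and species, while others are given as examples. The members and lists were chosen with earlier results of these data known. The check of contig names used contigs with at least 30 counts and was chosen after seeing the data.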

Additional observations from a re-analysis of the deposited data

Results flagged for a closer look

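In 3 of the 51 groups of 4 libraries tested, the highest library stood apart from the rest of its state by Dixon's criterion, which chance meets in about 5% of groups. Glucose dehydrogenase c8068 of T. pilagens was at 73.6 CPM in the raiding library DR_685, alpha-amylase 4N c35583 of T. americanus at 29.4 CPM in the non-raiding library BR_433, and alpha-amylase 1 c8723 of T. duloticus at 13.0 CPM in the non-raiding library BR_419.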

How the results depend on the processing

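All 25 fitted sugar contigs kept a fold change below 0 under edgeR's likelihood ratio test, DESeq2, RLE size factors, no low-count filter and each library left out, and the 17 of species with removed libraries that could be fitted kept it over all 8 libraries. Counts of contigs called moved by more than 1.5 times as follows. In T. duloticus DESeq2 and the likelihood ratio test, filtered or not, called 6 in place of 2, and in T. ambiguus each called 1 in place of 0. Leaving out 1 library gave 0 to 2 calls in T. americanus, 1 to 4 in T. duloticus and 3 to 6 in T. pilagens, and 0 in both hosts. Lower calls over all contigs were then 10 to 88 in T. americanus (155 with no kept library left out). They were 27 to 143 in T. duloticus (118) and 194 to 563 in T. pilagens (744). The cause was not tested. Summed levels of the roles moved by less than the spread between libraries with TMM-scaled sizes, and, chosen after seeing the data, over all 8 libraries and without each library. Depth limits the digestion contigs of T. pilagens below 1 CPM in raiding libraries. No paired analysis was possible because the library numbers of a species differ between its states and no source used here says which libraries hold the same colonies.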
